A study of Mus musculus with 8 samples.

Results

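The genes described here are those of the cytosolic ribosomal proteins, the proteins that together with ribosomal RNA form the translating ribosome of the cytosol. A gene counted as a member if it was protein coding and its symbol began with Rpl or Rps and a digit, or was Rpsa, Rplp0, Rplp1 or Rplp2. The S6 kinase genes (Rps6k), pseudogenes and symbols with -ps were left out. Of 392 annotated mouse genes with such symbols, 290 were pseudogenes and 102 protein coding, and 10 kinase genes and 6 -ps symbols among the latter were removed. This left 86 members, among 24375 genes with a row in at least 1 of the 2 tables used. By their names 52 belong to the large (60S) subunit and 34 to the small (40S) subunit.

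Ribosomal protein mRNAs are among the most abundant of most cells, and hepatocytes, which make the plasma proteins, are rich in ribosomes. Their 5′ ends usually carry a terminal oligopyrimidine (TOP) stretch, a cytosine followed by an unbroken run of C and T, through which mTOR and the RNA-binding protein LARP1 set how well the mRNAs are translated and kept. Ribosomal proteins are made in near equal numbers, and an excess of one is degraded. Cpeb4, the gene deleted in this study, encodes a protein that binds cytoplasmic polyadenylation elements (CPEs), short U-rich words in 3′ untranslated regions, and acts on the poly(A) tails of the mRNAs holding them.

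The series holds 8 RNA-seq libraries of mouse liver in 4 groups of 2, which are Cpeb4 KO and Wild-type total liver RNA, and Cpeb4 KO and Wild-type RNA of the endoplasmic reticulum (ER) isolated with a kit. The ER came from livers of mice fasted overnight, and the labels give no treatment and no age, sex or strain, nor how the knockout was made. The values are 2 deposited DESeq2 tables, called the longer (23634 genes) and the shorter (21201 genes), which hold 1 mean and 1 fold change per gene and no value for any library. Neither names its RNA preparation. The level of a member in each library, and the overlap of the groups, could therefore not be given. The direction was read from Cpeb4, which had the smallest p of both tables with a negative sign (log2 fold change -1.16 ± 0.11 (SE) and -1.10 ± 0.13 in the authors' deposited longer and shorter tables), so a value above 0 means higher in the knockout. Summed over all genes, the mean counts came to 3.74e+07 and 3.68e+07.

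The 7 hepatocyte markers found by symbol all had high mean counts, with Alb, serum albumin, at a mean count of 1307220 in the authors' deposited longer table and 555793 in the shorter. Of these 7, 4 in the longer table and 5 in the shorter lay below 0 (median log2 fold changes -0.11 and -0.05), none called. Ttr, transthyretin, had the lowest p of the list, at -0.19 ± 0.08 in the authors' deposited longer table and -0.24 ± 0.11 in the shorter, with unadjusted p-values of 0.0150 and 0.0257 by DESeq2. Blood cells and macrophages, which are other sources of ribosomal protein mRNA, were also present. The 4 adult globin genes tested, near-identical in 2 pairs, were below 0 in both of the authors' deposited tables, with medians of -0.30 and -0.40, and none passed the adjusted p although all 4 had an unadjusted p under 0.05 in both. Slc4a1, a membrane protein of red cells, was near 0, with mean counts of 2.23 and 1.19 in the authors' deposited tables. Of 8 Kupffer cell markers, 7 in the longer table and 8 in the shorter lay below 0, again with none called. Of 2 lymphocyte markers tested, 1 in the longer table and 2 in the shorter lay below 0. Ptprc, common to all white blood cells, had mean counts of 151 and 113 in the authors' deposited tables, and Cd3e, a T cell marker, had 14.7 in the longer. Below 0 were also 5 of 5 stellate cell markers in the longer table and 3 of 4 in the shorter, 2 of 4 and 1 of 4 endothelial markers, and 1 of 2 and 1 of 2 cholangiocyte markers, with 0 called in any of these lists. What part these cells had in the ribosomal protein values was not tested, and in bulk RNA fewer cells of a type and less RNA per cell cannot be told apart.

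Of the 86 genes, 7 had no row and were not analysed here, namely Rpl13, Rpl24, Rpl35, Rpl35a, Rpl7l1, Rpl10l and Rps27rt. A further 2, Rpl3l and Rpl39l, which are copies of Rpl3 and Rpl39 known for expression outside liver, had no adjusted p. Their mean counts were 3.93 and 2.11 in the authors' deposited longer table and 3.43 and 2.53 in the shorter. The other 77 were tested in both tables. Of these, 3 were set apart because their mean differed between the tables by more than 4 times relative to all genes, and 4 because they are paralogues or no ribosomal proteins. The 70 that remained, 39 of the large and 31 of the small subunit, are called the core genes.

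Most core genes had a long run of C and T near their start. A RefSeq promoter (GRCm38.p6, 250 bases before to 50 bases after the start) was found for 66 members and 52 core genes. The longest run of C and T that begins with C, taken within 50 bases either side of the annotated start, had a median of 10 bases in the core genes and 6 bases in 17491 protein coding promoters. It reached 8 bases or more in 42 core genes (80.8%), against 29.0% of all protein coding promoters. A run was cut at the edge of these 50 bases, as at Rps23, whose run of 15 bases ended there. The following 30-base stretches show the 3 longest runs found in that window among the core genes, and that of Rpl7a, which was set apart. Those of Rplp0 and Rps3, which are among the shortest, follow, and capitals mark every run.
Rpl27a (chr7:109519185-109519214, plus strand): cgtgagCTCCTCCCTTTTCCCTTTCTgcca
Rpl15 (chr14:18270967-18270996, minus strand): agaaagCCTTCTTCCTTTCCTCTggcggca
Rpl11 (chr4:136053356-136053385, minus strand): ggaagtCTCCCTCTCTCTTCCTgttctcca
Rpl7a (chr2:26910789-26910818, plus strand): acaattCCCTCTTCTTTCTTTCTCCagcag
Rplp0 (chr5:115559474-115559503, plus strand): ctggttCTCCTataaaaggcacacgcgggc
Rps3 (chr7:99483667-99483696, minus strand): tcattgCTCCCgccctatatacctacttcc

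Runs of 20, 17 and 16 bases stood at Rpl27a, Rpl15 and Rpl11, and the run of Rpl27a began 4 bases before the annotated start. The word CCGGAAG, the core of sites for ETS factors and searched on both strands of the whole window, was present in 22 of 52 core promoters (42.3%) and in 11.9% of all protein coding ones. TATAAA, the TATA box word, was in 5 (9.62%) against 13.3%. AAGATGG, a YY1 word that can overlap the ATG of the coding start, was in 6 (11.5%) against 6.37%. These matches describe the letters of the windows only.

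CPE words were scarcer at the other end. TTTTAT or TTTTAAT, the canonical CPE words, occurred in the annotated 3′ untranslated region of 16 of 70 core genes (22.9%), against 57.9% of 11848 protein coding genes tested in the longer table. Their median length was 89 bases in the core genes and 930 bases in those protein coding genes. Each region came from a chosen annotated transcript of the gene. Some that hold a word are long, such as 4728 bases in Rps15a and 3167 bases in Rps20. Whether the liver mRNAs carry these long regions was not tested. Among regions of 100 bases or less, 3 of 40 core genes (7.5%) and 45 of 737 protein coding genes (6.11%) held such a word. Those 3 core genes are Rpl32, Rps2 and Rps3a1, of which 30 bases around the word are shown from GENCODE M21 transcripts with the CPE word in capitals. In each the word begins 11 to 14 bases before the AATAAA signal for polyadenylation.
Rpl32: tgcatgTTTTATgtttaaataaaatcacaa
Rps2: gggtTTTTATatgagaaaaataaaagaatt
Rps3a1: ccagatTTTTAATagtgacaaataaaaagt

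No ribosomal protein gene passed the authors' test for a difference between the genotypes. Of the 77 tested genes 0 passed an adjusted p of 0.05 in the longer table, where 0.296% of all tested genes passed, and 0 passed in the shorter, where 0.266% passed. At an unadjusted p of 0.05 the count was 0 in the longer table, against 3.62% of all tested genes. In the shorter it was 1, that of Rpl22l1, against 4.11%. The lowest p of a core gene was 0.135 in the authors' deposited longer table and 0.366 in the shorter, by the DESeq2 Wald test. With the median standard error of the core genes, a log2 fold change of 0.35 in the longer table and 0.45 in the shorter was needed to pass. The 95% interval (1.96 SE either side) lay within 0.3 of 0 on the log2 scale for 67 of 70 core genes in the longer table and 62 in the shorter. Small changes of single genes would thus not have passed, and the deposited estimates are shrunk towards 0.

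Taken as a list, the core genes lay mostly just above 0 in the longer table and on both sides of 0 in the shorter. Values above 0 were found for 64 of 70 (91.4%) in the longer table, with a median log2 fold change of 0.04 and a range from -0.03 to 0.13. All tested genes had 49.6% above 0 there and a median of -0.00083. Genes with a mean at least that of the lowest core gene, 2261 in number, had 55.7% above 0. Relative to genes of similar mean the count above 0 was 55 of 70. In the shorter table, 37 of 70 (52.9%) were above 0, with a median of 0.0039 and a range from -0.10 to 0.11, beside 50.3% of all tested genes. The standard error of a single core gene had a median of 0.092 in the authors' deposited longer table and 0.117 in the shorter. The members share libraries and scaling, so their signs are not independent of each other, and no test was made of the list.

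The core genes also lay close to one another. The Wald scores, that is fold changes over their standard errors, had an SD of 0.40 over the core genes of the longer table, against 0.90 over all tested genes and 1.17 over genes of at least the lowest core mean. The SDs in the shorter table were 0.35, 0.94 and 1.13. Of the 70 log2 fold changes, 62 in the longer table and 67 in the shorter were within 0.1 of 0.

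**Figure D1:**
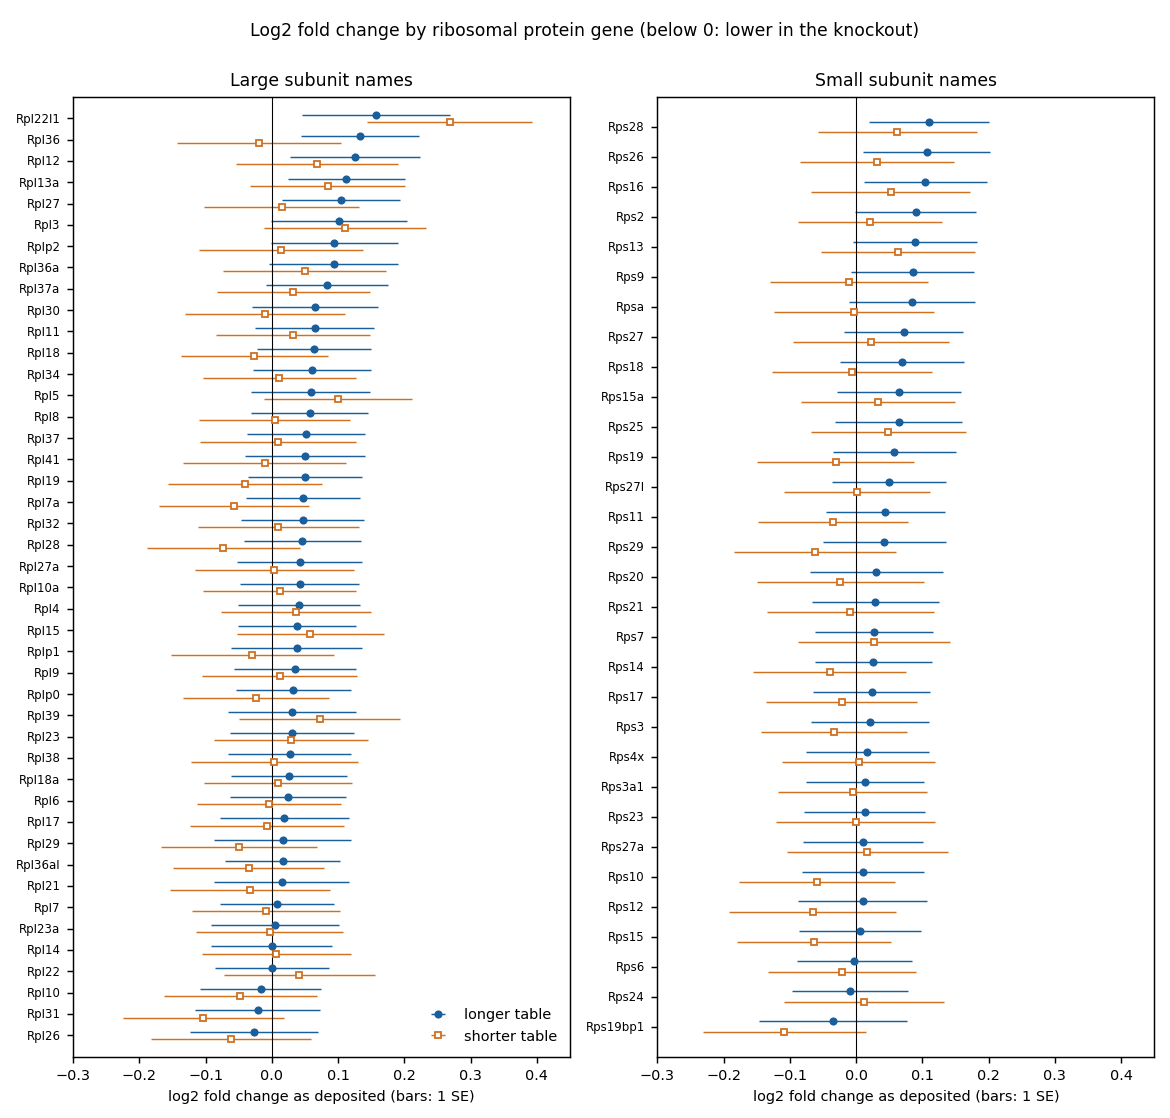
Log2 fold change (horizontal axis, as deposited, 1 SE bars) of ribosomal protein genes tested in both tables, large subunit names on the left and small subunit names on the right, with filled circles for the longer table and open squares for the shorter. Most points of the longer table lie above 0, those of the shorter lie on both sides of it, and most bars cross 0.

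**Figure D2:**
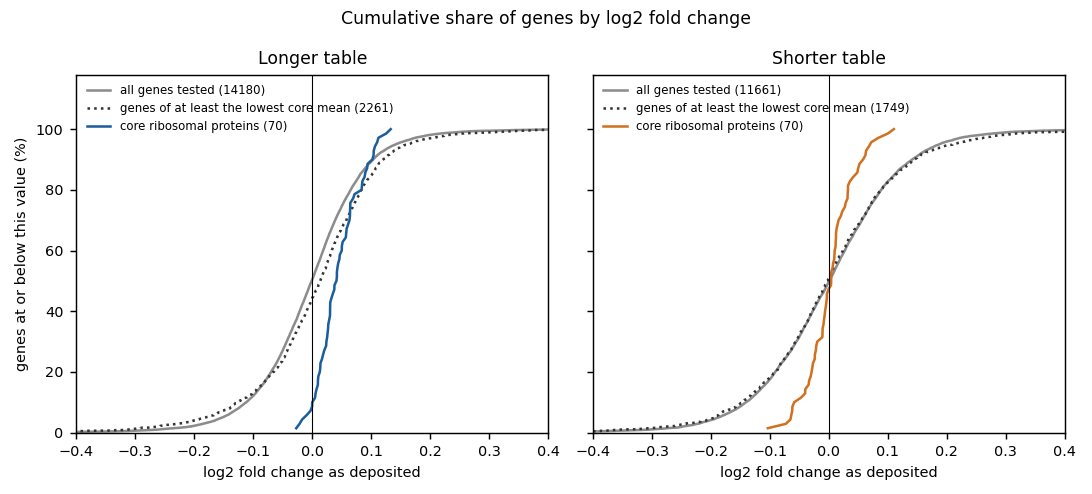
Cumulative share of genes (vertical axis, percent) by log2 fold change as deposited (horizontal axis), for the longer table on the left and the shorter on the right, with core ribosomal protein genes in colour, all tested genes in grey and genes of at least the lowest core mean dotted. The core curves are steeper than the others, and the one of the longer table stands mostly to the right of 0, with its median at 0.04.

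The stalk of the large subunit recruits and activates the GTPase factors of translation, and is formed by Rplp0 at its base, the acidic proteins Rplp1 and Rplp2, and Rpl12 beside it. All 4 were above 0 in the longer table and 2 of 4 in the shorter. Rpl12 had 0.13 ± 0.10 (SE) and 0.07 ± 0.12 in the authors' deposited longer and shorter tables. Rplp0 had 0.03 ± 0.09 and -0.02 ± 0.11 in the authors' deposited tables, Rplp1 0.04 ± 0.10 and -0.03 ± 0.12, and Rplp2 0.09 ± 0.10 and 0.01 ± 0.12. Each value was within 1.3 standard errors of 0.

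Rpl5 and Rpl11 bind the 5S ribosomal RNA, and when ribosome assembly is disturbed the free complex inhibits Mdm2, the ubiquitin ligase of p53. Both were above 0 in both tables. Rpl5 had 0.06 ± 0.09 and 0.10 ± 0.11, and Rpl11 0.06 ± 0.09 and 0.03 ± 0.12, in the authors' deposited longer and shorter tables. Neither had a p under 0.05.

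The nascent chain leaves through a tunnel lined by Rpl4, Rpl17 and Rpl39 and opening at a rim of Rpl19, Rpl23a, Rpl26, Rpl31 and Rpl35, the face that docks on the ER. Of the 7 with a row, 5 were above 0 in the longer table and 2 in the shorter, none called. Rpl31 had -0.02 ± 0.09 in the authors' deposited longer table and -0.10 ± 0.12 in the shorter, where it was the lowest core gene. Rpl26 was the lowest core gene of the authors' deposited longer table at -0.03 ± 0.10, and had -0.06 ± 0.12 in the shorter. Rpl39 had 0.03 ± 0.10 and 0.07 ± 0.12, and Rpl4 0.04 ± 0.09 and 0.04 ± 0.11, in the authors' deposited tables. Rpl19 had 0.05 ± 0.09 and -0.04 ± 0.12, Rpl17 0.02 ± 0.10 and -0.01 ± 0.12, and Rpl23a 0.00 ± 0.10 and -0.00 ± 0.11, again as deposited by the authors. The exit face thus spread over both signs, within its errors.

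Among the other large subunit genes, Rpl36 was the highest core gene of the authors' deposited longer table at 0.13 ± 0.09 (p = 0.135, adjusted p = 1.00 by DESeq2), and had -0.02 ± 0.12 in the shorter. Rpl13a, which is also known as an inhibitor of translation when released from the ribosome, had 0.11 ± 0.09 and 0.08 ± 0.12 in the authors' deposited tables and was among the 5 highest of both. Rpl3, which reaches towards the peptidyl transferase centre, was the highest core gene of the authors' deposited shorter table at 0.11 ± 0.12, with 0.10 ± 0.10 in the longer. Rpl10, which joins the large subunit late in its assembly, had -0.02 ± 0.09 and -0.05 ± 0.12 in the authors' deposited tables. Rpl28 had 0.05 ± 0.09 in the authors' deposited longer table and -0.07 ± 0.11 in the shorter.

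The 40S subunit reads the mRNA, and 9 proteins of its decoding site and mRNA path were listed, Rps2, Rps3, Rps9, Rps14, Rps15, Rps23, Rps26, Rps28 and Rpsa. All 9 were above 0 in the longer table (median 0.08) and 3 of 9 in the shorter (median -0.0033), none called. Rps28 and Rps26, which lie where the mRNA leaves the ribosome, had 0.11 ± 0.09 and 0.11 ± 0.10 in the authors' deposited longer table, the 2 highest of the small subunit. Their values in the authors' deposited shorter table were 0.06 ± 0.12 and 0.03 ± 0.12. Rps15, near the decoding site, had 0.01 ± 0.09 and -0.06 ± 0.12 in the authors' deposited tables. Rps12 and Rps29 were also among the 5 lowest core genes of the authors' deposited shorter table, at -0.07 ± 0.13 and -0.06 ± 0.12, with 0.01 ± 0.10 and 0.04 ± 0.09 in the longer. Rps6, the substrate of the S6 kinases, had -0.00 ± 0.09 and -0.02 ± 0.11 in the authors' deposited tables. Rps24 had -0.01 ± 0.09 and 0.01 ± 0.12 there, again as the authors' deposited tables give it. Over the whole subunit 29 of 31 core genes were above 0 in the longer table and 13 of 31 in the shorter. For the large subunit the counts were 35 of 39 and 24 of 39.

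The paralogues were compared with their parent genes. Rpl22l1, a paralogue that can replace Rpl22 in the ribosome, had 0.16 ± 0.11 in the authors' deposited longer table (p = 0.161) and 0.27 ± 0.12 in the shorter (p = 0.0307), with adjusted p-values of 1.00 and 0.999 by DESeq2. It was thus the only one of the 77 genes with an unadjusted p under 0.05 in either table. Its parent Rpl22 had -0.00 ± 0.09 and 0.04 ± 0.11 in the authors' deposited tables, and a level per coding kilobase of 12776 and 16953 against 1886 and 2254 for Rpl22l1. Rps27l, which p53 can induce, had 0.05 ± 0.09 and 0.00 ± 0.11 in the authors' deposited tables, beside 0.07 ± 0.09 and 0.02 ± 0.12 for Rps27. Rpl36al had 0.02 ± 0.09 and -0.04 ± 0.11 in the authors' deposited tables, and Rpl36a, on chromosome X, had 0.09 ± 0.10 and 0.05 ± 0.12. Rps19bp1 encodes a protein that binds Rps19 and no ribosomal protein, and had -0.04 ± 0.11 and -0.11 ± 0.12 in the authors' deposited tables, beside 0.06 ± 0.09 and -0.03 ± 0.12 for Rps19.

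Fau and Rack1 encode ribosomal proteins with symbols outside the rule. Fau, which encodes a ubiquitin-like protein fused to a small subunit protein, had 0.09 ± 0.10 and 0.01 ± 0.13 in the authors' deposited tables. Rack1, the scaffold protein of the 40S head, had 0.03 ± 0.09 and -0.04 ± 0.11 in the authors' deposited tables. Rps27a, which encodes ubiquitin fused to a small subunit protein, had mean counts of 7973 and 14546 in the authors' deposited tables, with 0.01 ± 0.09 and 0.02 ± 0.12.

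The difference of the fold changes between the tables was tested for each gene by a z test, adjusted over 11604 genes. It passed for 0 of the 77 genes, beside 0.0172% of all genes, and 0 had an unadjusted p under 0.05, beside 0.138%. The largest was that of Rpl36, at -0.15 ± 0.15 (shorter table less longer table, 95% interval -0.45 to 0.15), with an unadjusted p of 0.318 and an adjusted p = 1.00 on the DESeq2 estimates. Rpl28, Rpl7a and Rps29 followed with -0.12 ± 0.15, -0.10 ± 0.14 and -0.10 ± 0.15. Rpl22l1 differed the other way by 0.11 ± 0.17. The core genes had a median difference of -0.04, with 62 of 70 (88.6%) below 0, beside 48.7% of all genes with a median of 0.0031. The longer table's lean above 0 was thus not shown to differ from the shorter table for any single gene. The errors, interval and p-values of these differences assume independent tables. Over all genes the z values had an SD of 0.535, beside 0.90 and 0.94 for the Wald scores within the longer and shorter tables. The errors of the differences are thus likely too wide. This test seldom passed for any gene, and 0 says little.

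In level per coding kilobase, the core genes were among the most abundant mRNAs of both tables. Per kilobase of coding sequence their median level was 15296 mean counts in the longer table and 22847 in the shorter, beside 341 and 366 for all protein coding genes tested. On this scale 66 and 67 of 70 fell in the top 5% of protein coding genes. By mean count without division by length, fewer stood out. Among the 500 genes of highest mean were 20 core genes in the longer table and 32 in the shorter. Levels were close within the group, with the middle 50% of core genes from 12794 to 19126 per coding kilobase in the longer table and from 17386 to 28664 in the shorter. The highest was Rpl41, at 162491 and 235387, whose coding sequence of 78 bases is the shortest of the core genes, so that its untranslated bases weigh more in this scale. Rplp1 at 34086, Rpl13a at 26300, Rpl23 at 25335 and Rps29 at 25221 came next in level per coding kilobase in the longer table. The lowest were Rpl23a at 5009, Rps15a at 7251, Rps2 at 9311, Rpl3 at 9436 and Rpl17 at 9524. Of the exonic bases of Rpl23a, 62.3% are overlapped by other annotated genes, mainly Tlcd1 on the opposite strand, and 83.0% of its 31-base words recur in other genes.

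The core genes together made up 1.53% of the summed mean counts of the longer table and 2.16% of the shorter. Between the tables, which were normalised separately, their mean was higher in the shorter table by a median of 1.43 times. Over all genes the median went the other way, by -0.25 on the log2 scale. Relative to that, the core genes had a median log2 ratio of 0.77 (range -0.23 to 1.38), and 69 of 70 were above the median of all genes, whose middle 50% ran from -0.45 to 0.47. The exception was Rplp0, with mean counts of 18420 and 13179 in the authors' deposited longer and shorter tables. What the preparation, the libraries or the processing of each table contribute to this difference cannot be told apart.

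The genes set apart were Rpl21, Rpl29 and Rpl7a, all of the large subunit. Rpl21 (chromosome 5, 146832890 to 146837032, plus strand, GRCm38) had a mean count of 1440 in the authors' deposited longer table and 13318 in the shorter, 9.25 times as high. Rpl29 (chromosome 9, 106429454 to 106431568, plus strand) had 1098 and 7680 in the authors' deposited tables, 7.00 times as high. Rpl7a (chromosome 2, 26910764 to 26913318, plus strand) had 4461 and 16818 in the authors' deposited tables, 3.77 times as high. Relative to all genes the log2 ratios were 3.46, 3.06 and 2.17. The threshold was 2 on that scale, and the gene just inside it was Rpl36al at 1.48. Of all genes tested in both tables, 453 (3.90%) were past it. Their fold changes between genotypes were as close to 0 as those of the core genes, with Rpl21 at 0.01 ± 0.10 and -0.03 ± 0.12, Rpl29 at 0.02 ± 0.10 and -0.05 ± 0.12, and Rpl7a at 0.05 ± 0.09 and -0.06 ± 0.11 in the authors' deposited tables.

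**Figure D3:**
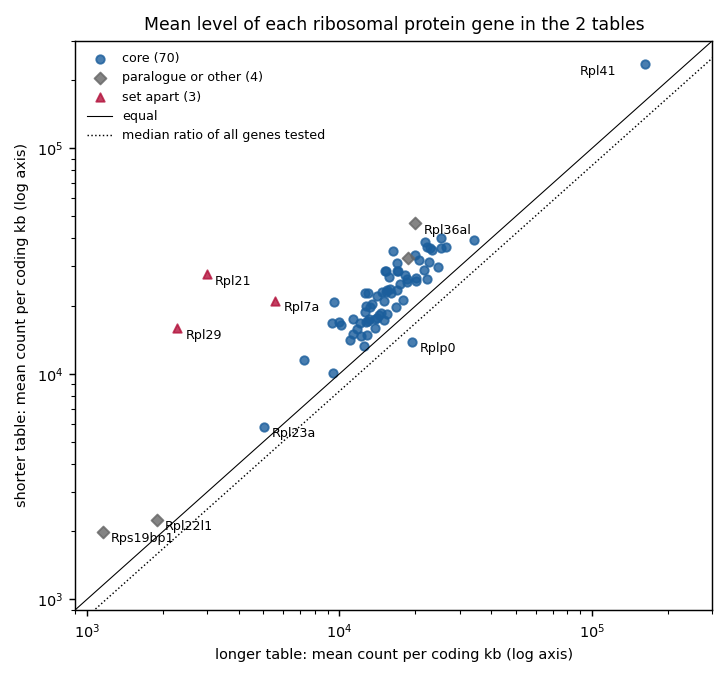
Mean count per kilobase of coding sequence of each ribosomal protein gene in the longer table (horizontal, log axis) and the shorter (vertical, log axis), with core genes as circles, paralogues and Rps19bp1 as diamonds and the genes set apart as triangles. Rpl21, Rpl29 and Rpl7a stand far above the line of equal levels, and Rplp0 lies below it.

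Ribosomal protein genes have many processed pseudogenes, intronless copies of the mRNA elsewhere in the genome, from which reads of the parent cannot always be told. In the core genes a median of 28.1% of the 31-base words of the gene's transcripts also occur in another annotated gene (up to 94.1% in Rpl36), and 42 of 70 are over 25%. A pseudogene holding at least 10% of a member's words was counted as its copy. The annotation has 377 such copies, of which 174 had a row in the longer table and 170 in the shorter. Those with an adjusted p numbered 151 and 133, of which 125 and 71 were above 0, with medians of 0.04 and 0.01, and 0 were called in either.

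The copies held far more of the counts in the longer table. Their summed mean was 0.829 times that of the members in the longer table and 0.256 times in the shorter. The copies summed include those of Rpl13, Rpl24 and Rpl35, which have no row and so add nothing to the sum of the members. Copies of Rpl13 alone summed to 23666 and 9694. A mean of 1000 or more was found for 111 copies in the longer table and 64 in the shorter. In the longer table the copies together exceeded the parent's own mean for 18 core genes, and in the shorter for 2, Rpl15 and Rpl23a. At Rpl3 the ratio was 2.50 in the longer table and 0.345 in the shorter. The sums did not all fall. For the genes set apart, copies summed to 401 and 314 (Rpl21), 1828 and 8482 (Rpl29), and 10017 and 6442 (Rpl7a) in the longer and shorter tables. Of 121 copies tested in both tables, 97 had a ratio of means below the median of all genes, with a median log2 ratio of -1.25 relative to it. Relative to all genes, the means of the core genes were thus higher and those of most copies lower in the shorter table. The sources used here do not state how reads with several matches were counted.

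Rplp0 and its copy Gm8730 show how little sequence separates them. Their coding stretches were equal in 942 of 954 bases (98.7%), yet Gm8730 had a mean count of 7691 in the authors' deposited longer table and 1496 in the shorter. Rpl21 and its copy Gm10240 were equal in 481 of 483 bases (99.6%), and Gm10240 had 0.809 and 152 in the authors' deposited tables. The 60 bases around the first difference are shown for both pairs, from bases 42 to 101 of the coding sequence of Rplp0 and bases 306 to 365 of that of Rpl21 (GENCODE M21), with the base that differs in capitals.
Rplp0: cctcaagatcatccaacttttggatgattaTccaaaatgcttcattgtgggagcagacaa
Gm8730: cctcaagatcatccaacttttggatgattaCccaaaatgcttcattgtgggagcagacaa
Rpl21: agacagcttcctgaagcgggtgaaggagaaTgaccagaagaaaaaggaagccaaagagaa
Gm10240: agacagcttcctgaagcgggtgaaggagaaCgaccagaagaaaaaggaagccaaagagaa

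The counts above 0 were also taken over core genes with less shared sequence or low counts at copies. Of the 28 with at most 25% shared words, 26 were above 0 in the longer table and 18 in the shorter. Of the 25 whose copies summed to under 10% of their own mean in the longer table, 23 and 16 were above 0.

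**Figure D4:**
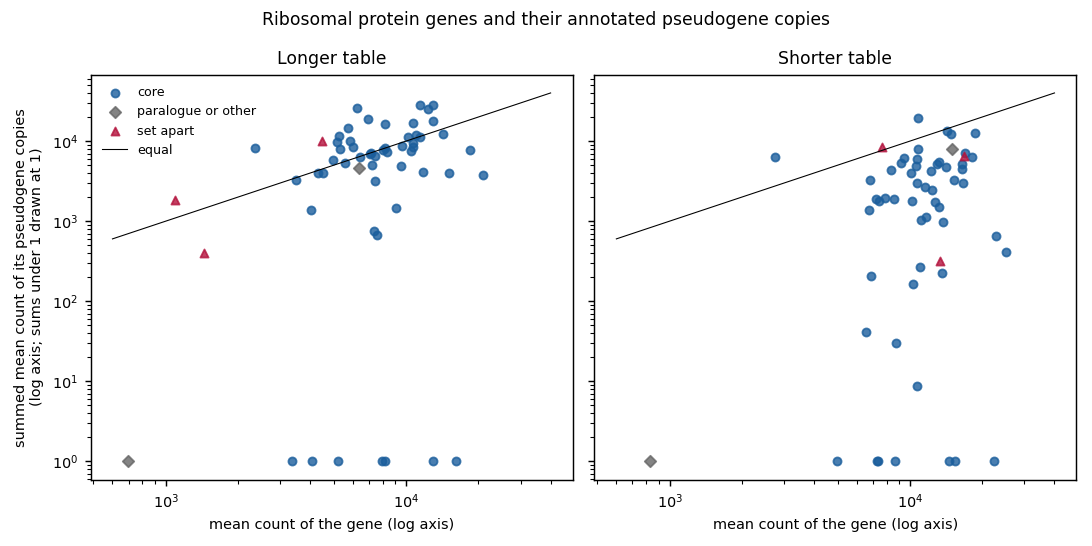
Summed mean count of the annotated pseudogene copies of each ribosomal protein gene (vertical, log axis, sums under 1 drawn at 1) against the gene's own mean count (horizontal, log axis) in the longer table on the left and the shorter on the right, with the line of equal values. In the longer table, 18 core genes lie above the line and in the shorter 2.

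The sequence features were set beside the fold changes. Of the core genes with a promoter, 42 had a C and T run of 8 bases or more within 50 bases of the annotated start. Of these 42, 36 were above 0 in the longer table and 26 in the shorter, with medians of 0.05 and 0.01. Those with a shorter run were above 0 for 10 of 10 and 5 of 10, with medians of 0.04 and 0.00015. A run could lie anywhere in that window, so this split does not separate TOP mRNAs from others. Core genes with a CPE word in the chosen annotated region were above 0 for 13 of 16 and 12 of 16 (medians 0.04 and 0.01). Those without were above 0 for 51 of 54 and 25 of 54 (medians 0.04 and -0.0039). These are descriptions of small groups, and the difference between them was not tested. Rpl32, Rps2 and Rps3a1, whose CPE words are shown above, had 0.05 ± 0.09, 0.09 ± 0.09 and 0.01 ± 0.09 in the authors' deposited longer table, and 0.01 ± 0.12, 0.02 ± 0.11 and -0.01 ± 0.11 in the shorter.

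For the rest of the translation pathway, 0 genes of the following lists were called in either table. Of 24 translation factors and other TOP genes tested, 11 were above 0 in the longer table and 9 in the shorter. Eif4a2, a helicase of initiation, had the lowest p of that list in the authors' deposited longer table, at -0.27 ± 0.09 (p = 0.00273, adjusted p = 0.318 by DESeq2), with -0.09 ± 0.11 in the shorter. Hnrnpa1, an RNA-binding protein with a TOP mRNA, had it in the authors' deposited shorter table at 0.20 ± 0.13, with 0.21 ± 0.12 in the longer. Eef1a1 and Eef2, the elongation factors, had -0.04 ± 0.08 and -0.04 ± 0.08 in the authors' deposited longer table, and -0.03 ± 0.10 and -0.08 ± 0.10 in the shorter.

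Of 32 ribosome biogenesis genes tested, 20 were above 0 in the longer table and 13 in the shorter, and of the RNA polymerase I list 8 of 13 and 3 of 12. The lowest p-values of these lists were those of Ltv1 and Ttf1 in the longer table and Rrp9 and Polr1c in the shorter. Ltv1, an assembly factor of the 40S subunit, had 0.20 ± 0.11 and 0.18 ± 0.13 in the authors' deposited tables, and Rrp9, a protein of small nucleolar particles, had -0.02 ± 0.12 and -0.19 ± 0.13. Ttf1, the transcription termination factor of polymerase I, had -0.14 ± 0.12 and -0.11 ± 0.14 in the authors' deposited tables, and Polr1c, a polymerase subunit, had -0.08 ± 0.11 and -0.15 ± 0.12.

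In the list of mTOR and LARP1 signalling, 11 of 18 genes were above 0 in the longer table and 13 of 18 in the shorter. Myc, a transcription factor that drives ribosomal protein and biogenesis genes, had the lowest p of the list in both, at 0.43 ± 0.12 (p = 0.000294, adjusted p = 0.0817 by DESeq2) in the authors' deposited longer table and 0.41 ± 0.14 (p = 0.00301, adjusted p = 0.366) in the shorter. Larp1 itself had 0.03 ± 0.08 and 0.07 ± 0.11 in the authors' deposited tables. In the p53 list, which holds parts and targets of the checkpoint that free Rpl5 and Rpl11 can trigger, 6 of 10 and 8 of 10 were above 0. Trp53inp1, a stress-induced partner of p53, had its lowest p, at 0.25 ± 0.12 (p = 0.0335, adjusted p = 1.00) in the authors' deposited longer table and 0.45 ± 0.13 (p = 0.000610, adjusted p = 0.151 by DESeq2) in the shorter. Neither gene passed the adjusted threshold.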

How the data were processed

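The members, lists and tests were chosen with earlier results of these data known. Per the file headers, the authors gave for each gene a mean signal (mean of counts divided by size factors), a log2 fold change with its SE, a Wald score, a p-value and an adjusted p-value. STAR 2.3.0e, DESeq2 1.6.3 and mm10 are named, without roles, in the submitters' processing notes. Annotation, counter, strand setting and the handling of reads with several matches were not given in the sources used here. No label states that both libraries of a group are from different mice, and p-values then reflect a spread that may be technical.

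Symbols, coding lengths, 31-base words and 3′ untranslated regions came from GENCODE M21 (GRCm38), promoters from RefSeq. Called means the authors' adjusted p under 0.05 over all genes. Levels are mean counts per coding kilobase, since annotated long transcripts made transcript length unreliable. The difference between the tables was a two-sided z test (Benjamini-Hochberg over all genes tested in both), which treats them as independent. The same description numbers, 6 to 9, are given to ER and to total liver libraries, so the tables may share mice, and the z values had an SD of 0.535 over all genes. The test was checked on simulated independent tables only. A quasi-likelihood test needs values per library and was not run, and the depth per library is unknown. Genes named with values are those past a test, with a p under 0.05, the 5 highest and lowest core genes by fold change and by level, the genes set apart, the 5 largest differences, the stalk, 5S and tunnel lists, the paralogues with their parents, Fau and Rack1, and the lowest p of the pathway lists. The other small subunit genes, the pseudogenes, the markers, Eef1a1, Eef2 and Larp1 were named after their values were seen. Python 3.11.15, numpy 2.4.6, pandas 2.3.3, scipy 1.17.1 and matplotlib 3.10.9 were used. Some genes are not reported here, in the text or in the plot by gene.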

Additional observations from a re-analysis of the deposited data

How the results depend on the processing

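The count of ribosomal protein genes called stayed 0 in both tables with no filter on the mean, with a mean count of at least 100, and with fold changes centred on the median of all genes. It also stayed 0 for the difference between the tables with each table centred, with a mean of at least 100 in both, and with z values divided by their SD. The lowest unadjusted p of a tested member was 0.135 in the longer table and 0.0307 in the shorter, by DESeq2. These settings thus had little room to change a count of 0. The number of core genes above 0 was 64 of 70 in the longer table, 65 centred on all genes, 55 centred on genes of similar mean, 70 of 77 over all tested members and 52 of 57 with the stricter limit on the ratio of means. Without genes of over 25% shared words it was 26 of 28, and among genes with few counts in copies, an alternative chosen after seeing the data, 23 of 25. For the shorter table the counts were 37 of 70, then 37, 42, 39 of 77, 28 of 57, 18 of 28 and 16 of 25. Setting genes apart at 2 times the ratio of all genes gave 19 genes in place of 3, at 8 times 2, and centring on the members 2. No paired analysis was possible because the tables hold no values per library, and for the same reason leaving out each library in turn was not run. The moderated fold changes and the 2 libraries per group limit what can be seen of small changes.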

Other observations

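Several ribosomal protein genes without a row of their own had counts at their pseudogene copies. Gm12918 and Rpl13-ps6, copies of Rpl13, had mean counts of 9320 and 7715 in the authors' deposited longer table and 4703 and 2716 in the shorter, and fold changes from 0.02 to 0.05. Gm12254, a copy of Rpl24, had 5626 and 2641 in the authors' deposited tables, with 0.06 ± 0.09 and 0.02 ± 0.12. The single pseudogene copy with an unadjusted p under 0.05 in either of the authors' deposited tables was Rpl3-ps2 in the shorter, at 0.26 ± 0.12 (p = 0.0337, adjusted p = 0.999 by DESeq2), with a mean count of 898, and it had 0.10 ± 0.10 in the longer with a mean of 7360.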
